A study of Homo sapiens with 41 samples.

Results

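Colo800 is a human melanoma line, and its response in culture to 48 h of vemurafenib, set against vehicle, is described here across all genes. The members were the 4 libraries that the sample titles assign to it, 2 from vemurafenib-treated and 2 from vehicle-treated cells, of 41 samples in the series. Treated cells received vemurafenib (also called PLX4032) at 1 µM, and control cells received vehicle. Both groups were plated in RPMI with 10% fetal bovine serum and changed the next morning to medium with 2% serum, so lowered serum is common to both. The labels do not name the vehicle or say whether the replicates came from separate cultures, so each p-value rests on the spread between the deposited libraries, which may be technical. Colo800 is 1 established line, and the design text of the series speaks of drug-sensitive melanoma cells. Libraries of 2 other melanoma lines served for comparison. They were UACC62 cells under the same dose, time and medium (n = 2 for vemurafenib and 2 for vehicle), and A375 cells, grown in DMEM, under 0.1 µM for 48 h (n = 3 for vemurafenib and 3 for vehicle).

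Vemurafenib blocks the mutant BRAF kinase. In BRAF-mutant melanoma that kinase signals through MEK to ERK without a growth factor, and ERK drives transcription of cyclin D1, of immediate early genes and of the pathway's own inhibitors, the Sprouty proteins and dual-specificity phosphatases. Melanoma cells also keep the programme of the melanocyte, in which the transcription factors MITF and SOX10 maintain the enzymes and structural proteins of the melanosome, the organelle that makes melanin. Blocking BRAF is known to raise pigment genes in many such lines and, in some, to bring out other states with little pigment and high levels of receptor kinases such as AXL or of the nerve growth factor receptor NGFR.

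The 4 libraries held 13104124 and 13768253 reads in vemurafenib cells and 14610564 and 14395570 in vehicle cells. Replicates differed slightly beyond counting noise, with a chi-square per degree of freedom of 1.74 for vemurafenib and 1.71 for vehicle, and all were kept as separate samples. The values carried the label's cell type, since all 11 melanocyte-lineage markers passed the filter on low values, which asked for a mean of 10 normalised reads. Their summed level in RPM, recovered reads scaled to the total of each library, was 15032 and 13536 RPM in vemurafenib cells, against 4736 and 4514 in vehicle cells. Leukocyte markers summed to at most 3.75 RPM in any library, keratinocyte markers other than KRT10 had at most 15 reads each, and the blood and T-cell genes HBB, CD3D and MS4A1 were at 0 in all 4 libraries. Of the 11 fibroblast markers, LUM, FAP and THY1 carried most of the reads and were lower under the drug, while the defining collagen genes COL1A1 and COL3A1 had at most 23 reads. Of the epithelial markers, the keratins KRT8 and KRT18 were read at moderate levels and EPCAM had at most 3 reads.

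Nearly 3 in 4 genes changed. By limma on log2 values, 9858 of 13451 tested genes passed an adjusted p of 0.05, which is 73.3%, with 36.0% higher and 37.3% lower in vemurafenib cells. The median SE of a log2 change was 0.0759, so many of these changes are small. A stricter count asked also for a 2-fold change: 985 genes (7.32%) rose and 1638 (12.2%) fell by that much, and these are called 2-fold changes in what follows. The groups did not overlap for 86.2% of the genes tested. The median log2 change over all genes was -0.000254 on the authors' scaling. Under quantile normalisation that median was 0.098 and 2-fold changes numbered 1205 higher and 1460 lower.

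**Figure D1:**
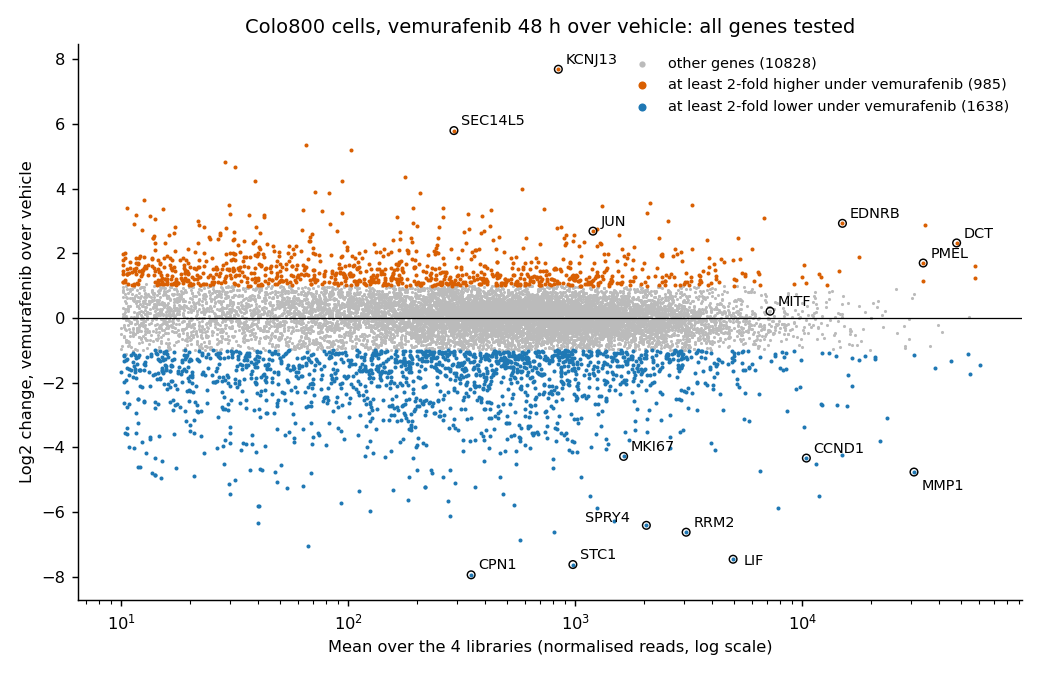
Log2 change of every gene tested in Colo800 cells (y axis, vemurafenib over vehicle, on the log2(value + 1) scale) against its mean over the 4 libraries in normalised reads (x axis, log scale). Coloured points are the 985 genes higher and 1638 genes lower by at least 2-fold at an adjusted p under 0.05, and grey points are the rest of the 13451; the largest falls, such as CPN1, STC1 and LIF, reach further from 0 than all rises but KCNJ13.

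The transcripts that report ERK activity fell as a group. All 23 tested of 25 listed MAPK outputs fell by at least 2-fold, against 12.2% of all genes, with a median log2 change of -3.65 and a range of -6.62 to -1.61. EGR3, an immediate early transcription factor, had 16.2 and 14.4 normalised reads in vemurafenib cells, against 1560.1 and 1627 in vehicle cells (log2 change -6.62 ± 0.12). DUSP6, the phosphatase that removes phosphate from ERK, had 38.5 and 34.5 normalised reads in vemurafenib cells, against 2750.2 and 3099 in vehicle cells. SPRY4, a Sprouty inhibitor of receptor signalling, had 52.7 and 41.2 normalised reads in vemurafenib cells, against 4096 and 4035 in vehicle cells. In each of these the vehicle libraries stood far above the vemurafenib libraries, and limma gave adjusted p = 6.91e-19 for EGR3 and 4.48e-20 for DUSP6. Groups that do not overlap were a condition for naming the largest changes, and 86.2% of all genes tested had them. FOSL1, a subunit of AP-1, fell by a smaller amount (-3.65 ± 0.10), as did MYC (-3.93 ± 0.088), the growth-driving transcription factor, and EPHA2 (-2.40 ± 0.058), an ephrin receptor whose gene ERK is known to drive. JUN, the AP-1 partner of the FOS family, went the other way and had 2124 and 2020.0 normalised reads in vemurafenib cells, against 327 and 315 in vehicle cells (2.69 ± 0.056).

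The kinases and adaptors of the RAS and RAF pathway moved little. Of 24 tested, 11 rose and 8 fell, against 36.0% and 37.3% of all genes. Only 2 rose and 0 fell by 2-fold, and the median log2 change was 0.070. Under quantile normalisation 14 rose and 4 fell (median 0.19). BRAF itself, the drug's target, had 224 and 217 normalised reads in vemurafenib cells, against 199 and 196 in vehicle cells, a difference that did not pass the test (0.16 ± 0.10, limma adjusted p = 0.171) except under quantile normalisation (0.28, adjusted p = 0.0208). The 2 that rose 2-fold were RASGRP3 (1.53 ± 0.14), an exchange factor that loads RAS with GTP, and KSR1 (1.23 ± 0.10), a scaffold that holds RAF, MEK and ERK together. RRAS (0.90 ± 0.12), a RAS-related GTPase, rose, and SHC1 (-0.93 ± 0.041), an adaptor of receptor kinases, and RASA2 (-0.79 ± 0.081), a RAS-inactivating protein, fell.

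Genes of cell division fell throughout. Of 32 DNA replication genes 32 fell by 2-fold (median log2 change -2.54), and of 30 mitosis genes 30 fell, 29 of them by 2-fold (median -3.13). By comparison, 37.3% of all genes fell and 12.2% fell by 2-fold. RRM2, the ribonucleotide reductase subunit that supplies deoxynucleotides, had 54.7 and 67.1 normalised reads in vemurafenib cells, against 6060.4 and 6131 in vehicle cells. CDC6, which licenses replication origins, had 61.8 and 59.4 normalised reads in vemurafenib cells, against 1614 and 1445 in vehicle cells, and its log2 change of -4.63 ± 0.088 stood beside -4.92 ± 0.22 for MCM10, another origin factor. MKI67, whose protein Ki-67 marks cycling cells, had 147 and 171 normalised reads in vemurafenib cells, against 3287 and 2925 in vehicle cells (-4.28 ± 0.074, limma adjusted p = 4.46e-19). Falls of the same kind were measured for TOP2A (-3.86 ± 0.044), the topoisomerase that untangles chromosomes, and AURKB (-4.12 ± 0.093), a kinase of chromosome segregation. None of these groups overlapped, as for 86.2% of all genes tested, yet all of the named transcripts were still read in vemurafenib cells. In RNA from whole cultures, fewer dividing cells and less of such RNA per cell cannot be told apart.

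The promoters of these genes are shown because 1 short element recurred in each list. Sequences are RefSeq's on the GRCh38.p14 build, from 250 bases before to 50 after the first listed start site of each gene, and a match of letters is a description, not a site of binding. The E2F element, searched as TTTGGCGC or TTTCGCGC on both strands, was found in 9 of the 28 replication genes with a promoter in the table (32.1%), against 322 of all 27305 promoters. The CHR element of mitotic genes, searched as TTTGAA or TTCGAA on both strands, was found in 16 of 24 mitosis genes (66.7%). It was in 16.6% of all promoters and 10.9% of those of the genes tested. The words of the E2F and CHR elements do not contain one another. Below are the 2 members of each list with the largest falls that hold the element of their list, CDC6 (chr17:40287629-40287928, plus strand) and POLE2 (chr14:49688165-49688464, minus strand, a subunit of DNA polymerase epsilon, log2 change -3.53 ± 0.26), then MKI67 (chr10:128126374-128126673, minus strand) and TOP2A (chr17:40417847-40418146, minus strand), with the element in capitals. The replication promoters, POLE2 among them, were chosen after the values were seen. Promoters on 1 chromosome were left out of the choice for every list.
CDC6: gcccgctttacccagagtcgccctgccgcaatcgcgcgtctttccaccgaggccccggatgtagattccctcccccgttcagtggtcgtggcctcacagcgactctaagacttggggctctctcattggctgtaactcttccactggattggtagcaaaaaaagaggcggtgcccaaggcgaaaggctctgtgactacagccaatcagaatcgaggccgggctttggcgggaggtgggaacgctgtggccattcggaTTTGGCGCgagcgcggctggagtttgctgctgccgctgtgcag
POLE2: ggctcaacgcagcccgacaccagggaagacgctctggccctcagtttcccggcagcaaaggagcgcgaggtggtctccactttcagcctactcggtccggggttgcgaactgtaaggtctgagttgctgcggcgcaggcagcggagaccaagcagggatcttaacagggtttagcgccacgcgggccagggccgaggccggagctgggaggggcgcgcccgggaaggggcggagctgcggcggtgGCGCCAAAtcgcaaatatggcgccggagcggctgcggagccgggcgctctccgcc
MKI67: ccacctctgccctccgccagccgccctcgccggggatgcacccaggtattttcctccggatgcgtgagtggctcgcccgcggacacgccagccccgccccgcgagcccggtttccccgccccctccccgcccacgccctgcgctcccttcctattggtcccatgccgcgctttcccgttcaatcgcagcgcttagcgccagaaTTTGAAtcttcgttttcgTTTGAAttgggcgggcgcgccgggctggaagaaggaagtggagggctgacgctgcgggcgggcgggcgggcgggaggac
TOP2A: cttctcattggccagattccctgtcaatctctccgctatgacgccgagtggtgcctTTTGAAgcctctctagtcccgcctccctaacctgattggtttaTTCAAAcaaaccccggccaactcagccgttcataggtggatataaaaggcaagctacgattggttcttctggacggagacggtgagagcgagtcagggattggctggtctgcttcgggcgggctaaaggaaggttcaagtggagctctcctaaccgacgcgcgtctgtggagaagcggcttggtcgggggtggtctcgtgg

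The regulators of G1, which decide whether a cell enters replication, mostly fell. Of 27 tested, 24 fell, 14 by 2-fold, and 1 rose (median log2 change -1.08). Falls were called for 37.3% of all genes, 12.2% by 2-fold, and rises for 36.0%. CCND1, which encodes cyclin D1, had 1049 and 920.3 normalised reads in vemurafenib cells, against 19656 and 20055 in vehicle cells (-4.34 ± 0.051). E2F2, an activator of replication genes, fell as well (-4.13 ± 0.23). The inhibitors of cyclin-dependent kinases did not move together. CDKN1B, encoding p27, was the riser and had 2459.6 and 2347 normalised reads in vemurafenib cells, against 1076 and 1096 in vehicle cells (1.14 ± 0.046). CDKN1A, encoding p21, had 355 and 357 normalised reads in vemurafenib cells, against 1868 and 1964 in vehicle cells (-2.42 ± 0.055) and CDKN2B, encoding p15, fell with it (-4.06 ± 0.062). The vehicle libraries were the high ones for CDKN1A and the low ones for CDKN1B. Neither had overlapping groups, as for 86.2% of all genes tested.

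**Figure D2:**
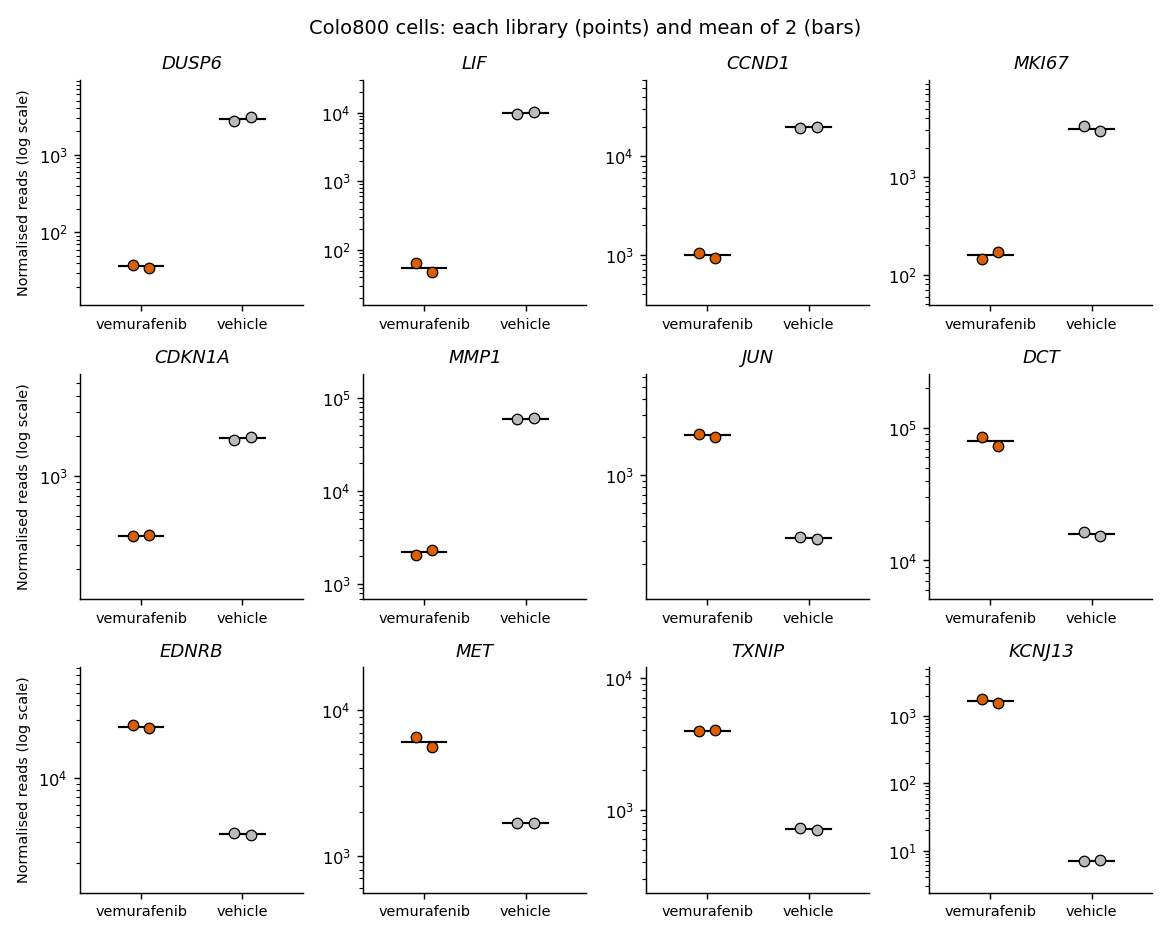
Normalised reads (y axis, log scale) of 12 genes in each Colo800 library, with vemurafenib on the left and vehicle on the right of each panel; each point is 1 library and the bar is the mean of 2. The replicate points nearly coincide, and no panel has overlapping groups, as for 86.2% of all genes tested. DUSP6, LIF, CCND1, MKI67, CDKN1A and MMP1 are lower under vemurafenib, and JUN, DCT, EDNRB, MET, TXNIP and KCNJ13 are higher.

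Pigment genes rose, in cells that read many of them highly under vehicle too. Of 30 tested of 33 listed melanin and melanosome genes, 23 rose, 15 by 2-fold, and 5 fell, 2 by 2-fold, with a median log2 change of 0.92. The shares over all genes were 36.0% higher and 37.3% lower, with 7.32% and 12.2% by 2-fold. Their summed level was 28445 and 26652 RPM in vemurafenib cells, against 7727 and 7345 in vehicle cells. DCT, which acts beside tyrosinase in melanin synthesis, had 86177 and 73304 normalised reads in vemurafenib cells, against 16453 and 15344 in vehicle cells (2.32 ± 0.060). PMEL, the protein of the fibrils inside melanosomes, had 54475 and 49766 normalised reads in vemurafenib cells, against 16807 and 15259.6 in vehicle cells (1.70 ± 0.052). TYR, the rate-limiting enzyme tyrosinase, had 16089 and 14878 normalised reads in vemurafenib cells, against 5035 and 4797 in vehicle cells (1.65 ± 0.044). GPNMB, a melanosome glycoprotein named for its abundance after the values were seen, took 0.656% and 0.658% of reads under vemurafenib, more than any other gene in those 2 libraries. The largest rise on the list was of TSPAN10, a tetraspanin, which had 831 and 712 normalised reads in vemurafenib cells, against 74.4 and 77.2 in vehicle cells (3.33 ± 0.10). TYRP1 (1.84 ± 0.050) and TRPM1 (2.04 ± 0.059), a melanocyte cation channel, rose too, and MLANA, a melanosome protein used as a diagnostic marker, rose by less (0.82 ± 0.043).

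Not every pigment gene followed. SLC45A2, a melanosome transporter, had 519 and 516 normalised reads in vemurafenib cells, against 1376 and 1209 in vehicle cells (-1.32 ± 0.063), and APOD, an apolipoprotein, fell too (-1.54 ± 0.050), as did BIRC7 (-0.89 ± 0.096), an apoptosis inhibitor under MITF control. MC1R, the melanocortin receptor, named after its values were seen, had 353 and 367 normalised reads in vemurafenib cells, against 354 and 381 in vehicle cells and did not pass (-0.027 ± 0.079). S100B, a diagnostic marker of the melanocyte lineage, fell (-1.35 ± 0.043) and was the 1 faller among the 11 lineage markers, of which the other 10 rose. The M-box, the element that MITF is known to bind, was searched as TCATGTG on both strands. It was found in 6 of the 24 list members with a promoter in the table (25.0%). Its share was 2.99% of all promoters and 1.77% of those of the genes tested in Colo800 cells. The 2 members with the largest changes that hold it were TSPAN10 (chr17:81642055-81642354, plus strand) and TYRP1 (chr9:12693135-12693434, plus strand), shown with the M-box in capitals.
TSPAN10: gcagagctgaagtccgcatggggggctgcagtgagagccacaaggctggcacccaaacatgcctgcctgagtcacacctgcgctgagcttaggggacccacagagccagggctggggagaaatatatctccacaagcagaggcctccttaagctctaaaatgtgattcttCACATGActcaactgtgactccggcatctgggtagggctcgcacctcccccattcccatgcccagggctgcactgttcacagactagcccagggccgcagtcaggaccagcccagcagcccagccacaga
TYRP1: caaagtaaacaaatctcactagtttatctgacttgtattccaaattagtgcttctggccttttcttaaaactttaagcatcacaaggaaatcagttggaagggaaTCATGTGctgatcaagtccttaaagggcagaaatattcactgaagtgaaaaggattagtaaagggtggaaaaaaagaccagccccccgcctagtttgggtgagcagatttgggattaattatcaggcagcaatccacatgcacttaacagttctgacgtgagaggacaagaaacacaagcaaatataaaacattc

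**Figure D3:**
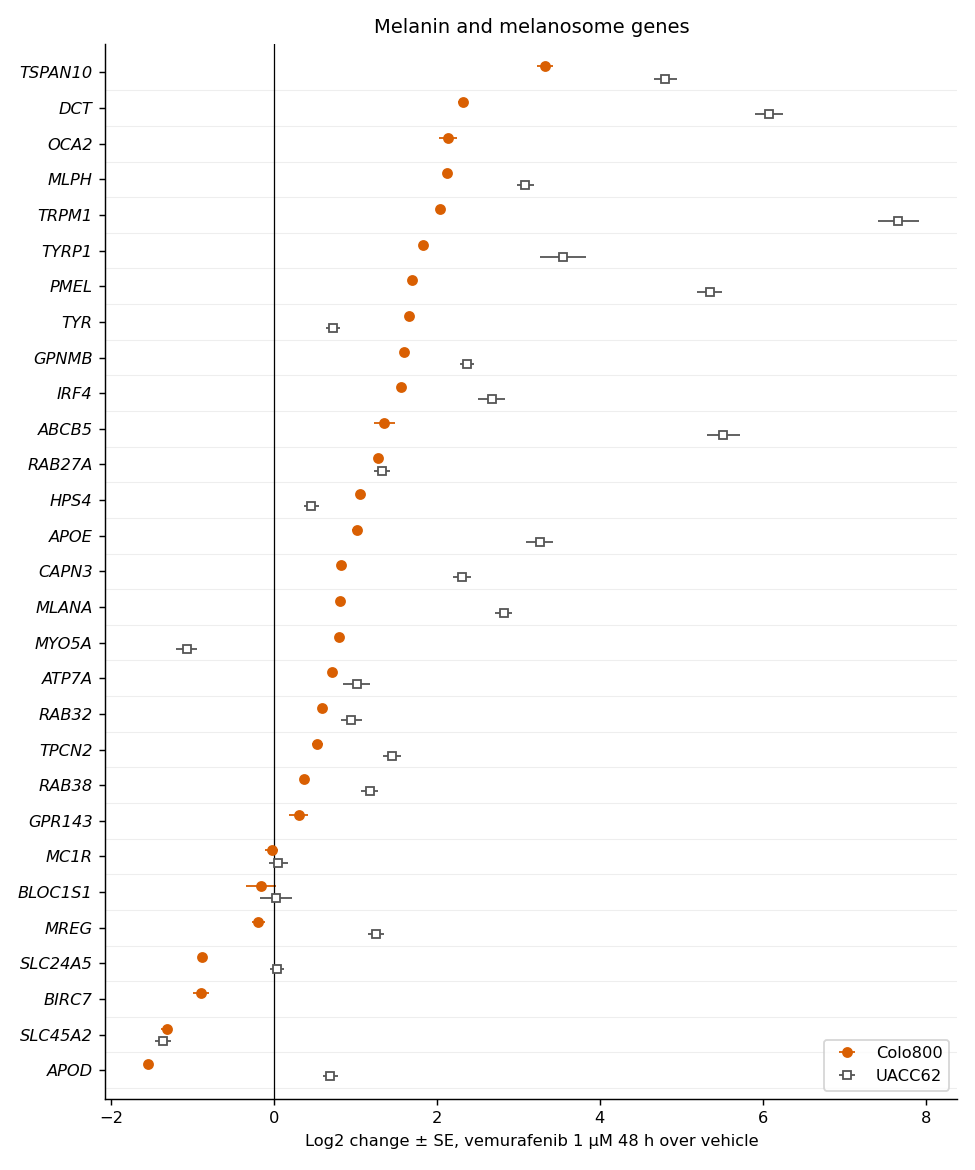
Log2 change ± SE (x axis, vemurafenib over vehicle) of 29 of the 30 tested melanin and melanosome genes, in order of their change in Colo800 cells, with UACC62 cells below each where the gene was tested there (26 genes). In Colo800 cells the changes run from APOD at -1.54 to TSPAN10 at 3.33, and most lie to the right of 0.

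The transcription factors of the lineage went in both directions. Of 21 tested, 11 rose and 9 fell, 6 each way by 2-fold (median log2 change 0.21). Over all genes 36.0% rose and 37.3% fell, 7.32% and 12.2% by 2-fold. MITF had 8122 and 7352 normalised reads in vemurafenib cells, against 6798 and 6572 in vehicle cells, a rise that passed the test but was small (0.21 ± 0.046, limma adjusted p = 0.000515), and SOX10 rose by 0.49 ± 0.040 on the log2 scale. TFAP2A, a partner of MITF at melanocyte genes, had 2419 and 2315 normalised reads in vemurafenib cells, against 679.5 and 701 in vehicle cells (1.78 ± 0.049), while its paralog TFAP2C fell (-3.06 ± 0.075). The same opposition was seen in the ZEB pair: ZEB2, which belongs to differentiated melanocytes, had 7887 and 7516 normalised reads in vemurafenib cells, against 2212 and 2223 in vehicle cells (1.80 ± 0.041), and ZEB1, which marks less differentiated melanoma, had 46.6 and 48.9 normalised reads in vemurafenib cells, against 312 and 307 in vehicle cells (-2.67 ± 0.13). FOXD3, a neural crest factor, rose (1.42 ± 0.087) and POU3F2, also called BRN2, a factor of invasive and less pigmented melanoma, fell (-3.12 ± 0.12). PPARGC1A, a driver of mitochondrial genes that MITF is known to raise, was higher by 0.23 ± 0.053.

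Receptors went both ways, and those that melanocytes depend on were among the rises. The list holds receptor tyrosine kinases together with NGFR and EDNRB, which are receptors of other kinds. Of 19 tested of 28 listed, 6 rose and 9 fell, 3 and 6 of them by 2-fold. Over all genes 36.0% rose and 37.3% fell, 7.32% and 12.2% by 2-fold. EDNRB, the endothelin receptor of melanocytes, had 27202 and 25916 normalised reads in vemurafenib cells, against 3555 and 3416 in vehicle cells (2.93 ± 0.041). KIT, the stem cell factor receptor that melanocytes need to survive, had 716 and 605 normalised reads in vemurafenib cells, against 111 and 103 in vehicle cells (2.62 ± 0.10). MET, the receptor of hepatocyte growth factor, had 6551 and 5578 normalised reads in vemurafenib cells, against 1684 and 1665 in vehicle cells (1.85 ± 0.056). These 3 were the 2-fold rises, and ERBB3, the neuregulin receptor, also rose (0.73 ± 0.039). On the falling side, KDR, a receptor of vascular endothelial growth factor, had 22.3 and 10.5 normalised reads in vemurafenib cells, against 462 and 444 in vehicle cells (-4.79 ± 0.23), IGF1R fell (-2.03 ± 0.048) and AXL had 18.2 and 25.9 normalised reads in vemurafenib cells, against 141 and 138 in vehicle cells (-2.63 ± 0.20). EGFR was close to the filter, with 8.10 and 3.83 normalised reads in vemurafenib cells, against 23.1 and 20.3 in vehicle cells, and its fall was measured with a large error (-1.77 ± 0.40, limma adjusted p = 0.000642). NGFR had 2899 and 3051 normalised reads in vemurafenib cells, against 2730.1 and 2836 in vehicle cells, and its change, of about 1.07-fold, missed the threshold in limma (0.096 ± 0.043, adjusted p = 0.0545) but passed in edgeR (adjusted p = 0.0285), with the replicate block (adjusted p = 0.0326), with a filter of 50, under quantile normalisation and without vemurafenib replicate 1 or vehicle replicate 2.

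Secreted signals were lower across most of what was measured. Of the 30 listed cytokines and chemokines 14 were tested. Of these 13 fell, 12 by 2-fold, against 37.3% and 12.2% of all genes, with 0 rising (median log2 change -2.95). The filter took the mean of all 4 libraries, so a gene near 0 in one group could pass through the other alone. CCL20 did so, with 1.01 and 1.92 normalised reads in vemurafenib cells, against 63.3 and 47.7 in vehicle cells. TSLP, with 12.2 and 9.59 in vemurafenib cells, against 4.02 and 7.11 in vehicle cells, missed the filter. The counts therefore hold for the tested genes only. LIF, a cytokine of the IL6 family, had 63.8 and 47.0 normalised reads in vemurafenib cells, against 9686 and 10025 in vehicle cells (-7.47 ± 0.093). The chemokine gene IL8, now called CXCL8, had 47.6 and 34.5 normalised reads in vemurafenib cells, against 2394 and 2525 in vehicle cells (-5.89 ± 0.11). IL1B, an inflammatory cytokine, had 0 reads in both vemurafenib libraries, against 112 and 151 reads in vehicle, so it was at least 45-fold lower, taking a floor of 3 reads per library. Of 34 growth factors and binding proteins tested of 57 listed, 8 rose and 21 fell, 3 and 17 of them by 2-fold (median -1.10). STC1, a secreted glycoprotein hormone, had 8.10 and 9.59 normalised reads in vemurafenib cells, against 1922 and 1965 in vehicle cells (-7.63 ± 0.13), and GDF15, a stress cytokine, had 1482 and 1516 normalised reads in vemurafenib cells, against 26782 and 30105 in vehicle cells (-4.24 ± 0.048). INHBA, the subunit of activin A, fell (-5.74 ± 0.38), as did EGF (-1.86 ± 0.093). The rises were of FGF1, with 107 and 125 normalised reads in vemurafenib cells, against 20.1 and 19.3 in vehicle cells (2.50 ± 0.20), of FSTL1 (1.88 ± 0.046), a follistatin-like glycoprotein, and of GDF11 (0.98 ± 0.063), among others. FSTL1 was the most abundant of the named growth factor genes in vemurafenib cells, at 28688 and 27017 normalised reads in vemurafenib cells, against 7871 and 7295 in vehicle cells.

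Most proteases fell, and matrix genes went both ways. Of 25 proteases and serpins tested, 17 fell, 13 by 2-fold, and 2 rose, both by 2-fold (median log2 change -1.23), with 15 lower and 5 higher under quantile normalisation. MMP1, a collagenase, had 2079.9 and 2322 normalised reads in vemurafenib cells, against 58888 and 60856 in vehicle cells (-4.77 ± 0.048), and SERPINB2 (-6.86 ± 0.15), an inhibitor of plasminogen activators, fell with it. MMP2, a gelatinase, had 4399.7 and 4746 normalised reads in vemurafenib cells, against 1465 and 1237 in vehicle cells and CTSK, a lysosomal collagen-cutting protease, had 5693 and 5416 normalised reads in vemurafenib cells, against 2199 and 2069 in vehicle cells, and these were the 2 that rose. Of 42 collagen and matrix genes tested, 17 rose and 20 fell, 7 and 16 of them by 2-fold. Over all genes 36.0% rose and 37.3% fell, 7.32% and 12.2% by 2-fold. Fibroblast markers, which share genes of this kind, summed to 58.1 and 51.4 RPM in vemurafenib cells, against 182 and 183 in vehicle cells, and 4 of the 6 tested of 11 fell; DPT, a defining one, was at 0 in all 4 libraries and COL3A1 had at most 4 reads. THBS2, a thrombospondin, had 945 and 994 normalised reads in vemurafenib cells, against 22339 and 21819 in vehicle cells (-4.51 ± 0.041). COL13A1, a transmembrane collagen, had 1.01 and 4.79 normalised reads in vemurafenib cells, against 123 and 125 in vehicle cells (-5.19 ± 0.39). CTGF, a matricellular target of YAP, had 44.6 and 52.7 normalised reads in vemurafenib cells, against 630.3 and 715 in vehicle cells (-3.76 ± 0.12). MATN2, a matrix adaptor protein, had 3847 and 3841 normalised reads in vemurafenib cells, against 1018 and 941 in vehicle cells (1.97 ± 0.047), and COL4A5 (1.98 ± 0.14) and LAMA5 (1.41 ± 0.056), chains of basement membrane, rose as well.

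Genes read in 1 condition and nearly silent in the other were few. Those with at most 3 reads in each library of one group and at least 50 in each of the other numbered 3 for vemurafenib and 14 for vehicle. LRRC7, a scaffold of neuronal synapses, had 51 and 64 reads in vemurafenib cells, against 1 and 1 in vehicle cells. In the other direction, CPN1, a carboxypeptidase, had 3 and 1 reads in vemurafenib cells, against 688 and 685 in vehicle cells. RAPGEF4, a cyclic AMP sensor that activates RAP GTPases, had 3 and 3 in vemurafenib cells, against 258 and 230 in vehicle cells. MRGPRX4, a G protein-coupled receptor, had 0 and 0 in vemurafenib cells, against 79 and 79 in vehicle cells, and was at least 27-fold lower.

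Among genes with a mean of at least 50 normalised reads, the largest rise was of KCNJ13, an inwardly rectifying potassium channel, which had 1775 and 1579 normalised reads in vemurafenib cells, against 7.04 and 7.11 in vehicle cells (7.70 ± 0.14, limma adjusted p = 6.39e-19). SEC14L5, of a lipid-binding protein family, had 623 and 526 normalised reads in vemurafenib cells, against 7.04 and 12.2 in vehicle cells (5.80 ± 0.21), and PADI2, which converts arginine to citrulline in proteins, had 128 and 128 normalised reads in vemurafenib cells, against 1.01 and 4.06 in vehicle cells (5.34 ± 0.37). Further rises among the 15 largest were of the procollagen protease ADAMTS14 (5.18 ± 0.24), the vesicle GTPase RAB3B (4.36 ± 0.16), the aspartoacylase ASPA (4.01 ± 0.10), the ligand WNT4 (3.88 ± 0.22) and the inhibitory SMAD6 (3.86 ± 0.15). PIK3R3, a regulatory subunit of PI3-kinase, was the most abundant of these 15 under the drug and had 6191 and 5855 normalised reads in vemurafenib cells, against 557 and 511 in vehicle cells (3.49 ± 0.050). C11orf9, now called MYRF, a transcription factor of myelin genes, rose by 3.41 ± 0.13. Among the 15 largest falls outside the groups above were CPN1, SLC5A4 (-6.12 ± 0.24), a transporter family member that senses glucose, VGF (-5.78 ± 0.22), a secreted neuropeptide precursor, and KIAA1199, now called CEMIP, a hyaluronan-binding protein that had 270.4 and 254 normalised reads in vemurafenib cells, against 15710.4 and 15173 in vehicle cells (-5.88 ± 0.046).

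**Figure D4:**
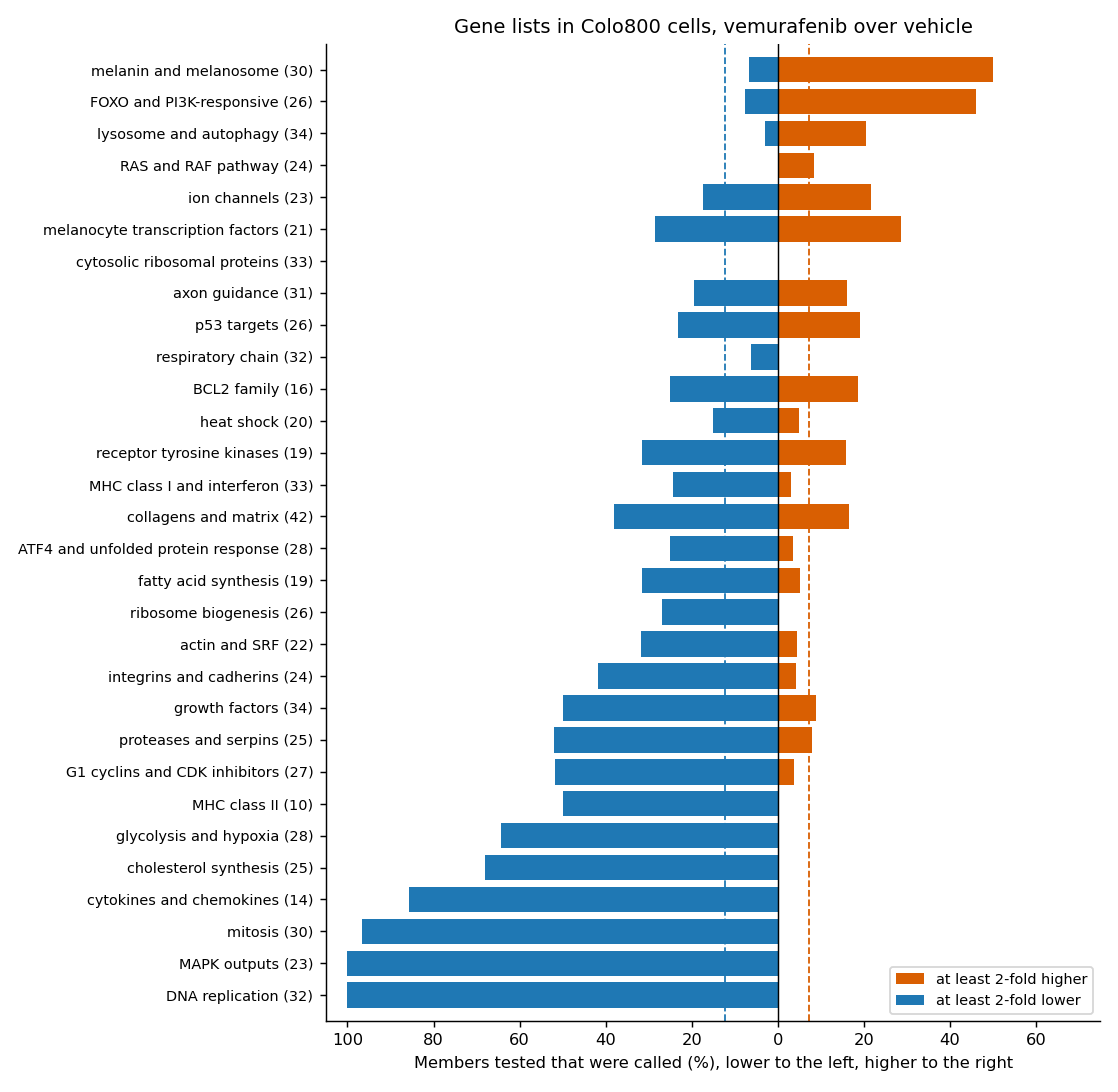
Share of tested members of each of the 30 gene lists called at least 2-fold higher (orange, to the right) or lower (blue, to the left) in Colo800 cells after vemurafenib; the number tested stands beside each name, and dashed lines mark the shares over all genes, 7.32% higher and 12.2% lower. MAPK outputs and DNA replication lie wholly on the lower side, and melanin, FOXO and lysosome genes reach further to the higher than to the lower side. The receptor tyrosine kinase row also counts NGFR and EDNRB.

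Genes of cholesterol synthesis and of glycolysis fell. Of 25 cholesterol synthesis genes tested, 23 fell, 17 by 2-fold, and 1 rose (median log2 change -1.45). SQLE, the enzyme that turns squalene into its epoxide, had 528 and 550.3 normalised reads in vemurafenib cells, against 2332 and 2298 in vehicle cells (-2.10 ± 0.050), and the enzyme DHCR7 (-2.16 ± 0.079) fell, whereas PMVK, the phosphomevalonate kinase of the pathway, rose (0.48 ± 0.077). Of 28 glycolysis and hypoxia genes, 25 fell, 18 by 2-fold, and 3 rose, 0 by 2-fold (median -1.25). LDHA, which makes lactate, had 3629 and 3967 normalised reads in vemurafenib cells, against 24315 and 24788 in vehicle cells (-2.69 ± 0.044), and PFKFB4, a regulator of glycolytic flux, and PDK1, which holds pyruvate out of mitochondria, fell (log2 changes of -2.90 ± 0.075 and -2.23 ± 0.065, in that order). GAPDH, often used as a reference transcript, had 24773 and 26741 normalised reads in vemurafenib cells, against 64615 and 65204 in vehicle cells (-1.33 ± 0.046), and ACTB, another such transcript, fell as well (-0.93 ± 0.043). Both kept these directions under each scaling tried. Fatty acid genes went both ways, 6 higher and 11 lower of 19, against 36.0% and 37.3% of all genes. FASN, fatty acid synthase, was at -1.54 ± 0.044 and ACACB, the mitochondrial acetyl-CoA carboxylase, at 1.09 ± 0.098.

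Genes of the respiratory chain and the lysosome went both ways. Of 32 respiratory chain genes 11 rose and 15 fell, against 36.0% and 37.3% of all genes. By 2-fold 0 rose and 2 fell, and the median was -0.061 (0.071 under quantile normalisation, which turned its sign, with 15 higher and 9 lower). Of 34 lysosome and autophagy genes 21 rose, 7 by 2-fold, and 9 fell, 1 by 2-fold (median 0.27), and their summed level was 20389.8 and 20584 RPM in vemurafenib cells, against 12801 and 12813 in vehicle cells. CTSF, a lysosomal cathepsin, had 1653 and 1538 normalised reads in vemurafenib cells, against 502 and 479 in vehicle cells (1.70 ± 0.057), and TFEB, the transcription factor of lysosomal genes, had 148 and 147 normalised reads in vemurafenib cells, against 49.3 and 61.9 in vehicle cells (1.40 ± 0.16). CTSL1, now called CTSL, was the 1 that fell 2-fold, with 2258 and 2092 normalised reads in vemurafenib cells, against 8292 and 7947 in vehicle cells (-1.90 ± 0.044).

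The protein synthesis and folding machinery was lower by modest amounts. Of 26 ribosome biogenesis genes 26 fell, 7 by 2-fold (median log2 change -0.86), led by URB2 (-1.28 ± 0.086) and the RNA methyltransferase NOP2 (-1.23 ± 0.068). For this and the next 3 lists, the shares over all genes were 37.3% lower and 36.0% higher, with 12.2% and 7.32% by 2-fold. Of 33 cytosolic ribosomal protein genes 31 fell and 1 rose, 0 by 2-fold in either direction (median -0.35), whereas under quantile normalisation 17 fell and 1 rose (median -0.12). These genes have many near-identical pseudogenes, so their counts are uncertain. Of 28 ATF4 and unfolded protein response genes 18 fell, 7 by 2-fold, and 5 rose, 1 by 2-fold (17 lower and 9 higher under quantile normalisation). ATF3, a stress-induced partner of JUN, was that 1 and had 1412 and 1574 normalised reads in vemurafenib cells, against 308 and 319.8 in vehicle cells (2.25 ± 0.064), whereas SLC7A11, the cystine importer, had 1667 and 1904 normalised reads in vemurafenib cells, against 5534 and 5524 in vehicle cells (-1.63 ± 0.052). Of 20 heat shock genes 14 fell, 3 by 2-fold, and 2 rose, 1 by 2-fold. The large rise was of CRYAB, a small chaperone, with 1281 and 1372 normalised reads in vemurafenib cells, against 137 and 118 in vehicle cells (3.37 ± 0.083), and HSPA8 (-1.26 ± 0.041) and HSPD1 (-1.22 ± 0.039), chaperones of cytosol and mitochondria, fell.

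Many FOXO-responsive genes rose, and genes of cell death went both ways. Of 26 FOXO and PI3K-responsive genes 21 rose, 12 by 2-fold, and 3 fell, 2 by 2-fold (median log2 change 0.79). The 3 that fell were PDK4 (-1.86 ± 0.12), KLF9 (-1.04 ± 0.042) and FOXO1 itself (-0.90 ± 0.058). TXNIP, which binds thioredoxin and limits glucose uptake, had 3923 and 3989 normalised reads in vemurafenib cells, against 725 and 707 in vehicle cells (2.47 ± 0.045). TRIM63, a ubiquitin ligase of muscle atrophy, had 2801 and 2532 normalised reads in vemurafenib cells, against 464 and 436 in vehicle cells (2.56 ± 0.057), and IRS2, an insulin receptor substrate, had 9584 and 9040.4 normalised reads in vemurafenib cells, against 3396 and 3499 in vehicle cells (1.43 ± 0.042). Of 16 genes of the BCL2 family 7 rose and 6 fell, 3 and 4 of them by 2-fold. Over all genes 36.0% rose and 37.3% fell, 7.32% and 12.2% by 2-fold. BMF had 3826 and 3715 normalised reads in vemurafenib cells, against 992 and 973 in vehicle cells (1.94 ± 0.044) and BCL2L11, encoding BIM, had 1089 and 1029.6 normalised reads in vemurafenib cells, against 322 and 308 in vehicle cells (1.75 ± 0.065), and with BBC3, encoding PUMA (1.67 ± 0.12), these death-promoting BH3-only genes were the 3 that rose 2-fold. PMAIP1, encoding the BH3-only protein NOXA, had 65.8 and 74.8 normalised reads in vemurafenib cells, against 465 and 517 in vehicle cells (-2.79 ± 0.11), and the protective gene BCL2 (-2.08 ± 0.14) and BCL2A1 (-0.94 ± 0.11), a protective gene that MITF is known to drive, fell. Targets of p53 were 11 higher and 12 lower of 26, near the shares over all genes (36.0% and 37.3%), and among them TP53INP1 rose (2.13 ± 0.10) and PLK3 fell (-2.55 ± 0.14).

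At the cell surface, adhesion genes and MHC class II genes were lower. Of 24 integrins, cadherins and other adhesion genes 18 fell, 10 by 2-fold, and 3 rose, 1 by 2-fold. ITGB3, the beta-3 integrin of advancing melanoma, had 3504 and 3005 normalised reads in vemurafenib cells, against 21840.1 and 20395 in vehicle cells (-2.70 ± 0.056), and ITGA9 fell (-3.09 ± 0.13), whereas ALCAM, an adhesion molecule of the immunoglobulin family, had 3575 and 3602 normalised reads in vemurafenib cells, against 1455 and 1385 in vehicle cells (1.34 ± 0.044). Of 22 actin and SRF-driven genes 16 fell and 4 rose, with the actin crosslinker ACTN1 at -2.85 ± 0.044 and the contractile actin ACTA2 at 1.57 ± 0.19. Of 10 MHC class II genes tested of 12 listed 9 fell, 5 by 2-fold, and 0 rose (median -0.91). CD74, the invariant chain that guides class II molecules, had 1313 and 1441 normalised reads in vemurafenib cells, against 4273 and 4369.7 in vehicle cells (-1.65 ± 0.047), and CIITA, their master transactivator, had 27.3 and 30.7 normalised reads in vemurafenib cells, against 106 and 117 in vehicle cells (-1.90 ± 0.19). Some HLA genes of this list are close to one another in sequence, so their single values are uncertain. Class I and interferon genes went both ways, 10 higher and 15 lower of 33, against 36.0% and 37.3% of all genes. Their summed level was higher, at 6349.8 and 6323 RPM in vemurafenib cells, against 4273 and 4331 in vehicle cells. STAT2 was at 1.12 ± 0.060 and OAS3, an antiviral enzyme, at -1.58 ± 0.077. Axon guidance genes, 13 higher and 11 lower of 31, were near the shares over all genes (36.0% higher and 37.3% lower), with SEMA6A at 2.76 ± 0.069 and NRP1, a semaphorin and VEGF co-receptor, at -2.89 ± 0.068. Of 23 ion channels 12 rose and 10 fell, against 36.0% and 37.3% of all genes. P2RX7, an ATP-gated channel, had 3902 and 3592 normalised reads in vemurafenib cells, against 431 and 357 in vehicle cells (3.25 ± 0.069) and KCNN4, a calcium-activated potassium channel, had 14.2 and 17.3 normalised reads in vemurafenib cells, against 496 and 515 in vehicle cells (-4.93 ± 0.16).

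UACC62 cells received the same dose for the same time, so the size of each response could be tested between the lines. Each change was taken against vehicle of its own table, and no level is compared between tables. The interaction test in limma called 4465 of 12765 genes (35.0%), with 2179 more positive and 2286 more negative in Colo800 cells. Of these, 525 (4.11%) and 798 (6.25%) differed by 2-fold. Genes called in both lines numbered 6074 (47.6% of those tested), and 539 (4.22%) of the tested genes were called in opposite directions. The UACC62 vemurafenib replicates were noisier, with a chi-square per degree of freedom of 11.8, and without UACC62 vemurafenib replicate 1 or 2 the count of differing genes was 6203 or 6850. The interaction test took a common spread per gene over both lines. The SE of a difference can therefore be smaller than that of the UACC62 change alone, as for TRPM1 (0.15 against 0.25). These SEs and p-values may understate the noise of UACC62 vemurafenib cells.

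Several leading pigment genes rose by less in Colo800 cells than in UACC62 cells. The log2 change of DCT was 2.32 ± 0.060 in Colo800 cells and 6.07 ± 0.17 in UACC62 cells (difference -3.75 ± 0.22, limma adjusted p = 1.13e-06). PMEL differed in the same sense, at 1.70 ± 0.052 in Colo800 cells and 5.35 ± 0.15 in UACC62 cells (difference -3.65 ± 0.14), and TRPM1 by more, at 2.04 ± 0.059 in Colo800 cells and 7.66 ± 0.25 in UACC62 cells (difference -5.62 ± 0.15, limma adjusted p = 2.18e-08). TRPM1 was close to 0 in UACC62 vehicle cells, with 406 and 392 normalised reads in UACC62 vemurafenib cells, against 0.924 and 1.03 in UACC62 vehicle cells, so the size of its difference depends on the pseudocount, at -4.04 with a pseudocount of 5 and -6.03 with 0.5. TYR was an exception, with a larger rise in Colo800 cells (1.65 ± 0.044) than in UACC62 cells (0.73 ± 0.086, difference 0.93 ± 0.090). Over the list, 20 of 27 genes differed between lines, against 35.0% of all genes. The median change was 0.92 over the 30 genes tested in Colo800 cells and 1.45 over the 27 tested in UACC62 cells. At the lower dose it was 0.96 over the 24 tested in A375 cells. These medians cover different members, so they are not a like-for-like comparison.

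The mitosis genes fell less deeply in Colo800 cells than in UACC62 cells, with medians of -3.13 and -5.22, and the median in A375 cells was -2.80. Of the 30 genes 28 differed between Colo800 and UACC62, against 35.0% of all genes. MKI67 changed by -4.28 ± 0.074 in Colo800 cells and -8.60 ± 0.30 in UACC62 cells (difference 4.32 ± 0.35, limma adjusted p = 8.52e-06). MKI67 was close to 0 in treated UACC62 cells, with 1.04 and 2.997 normalised reads in UACC62 vemurafenib cells, against 1127 and 1089.9 in UACC62 vehicle cells, and the difference was 3.08 with a pseudocount of 5 and 4.62 with 0.5. For CCND1 the order was the reverse, -4.34 ± 0.051 in Colo800 cells and -1.12 ± 0.11 in UACC62 cells (difference -3.22 ± 0.13). CDKN1A fell in Colo800 cells (-2.42 ± 0.055) and rose in UACC62 cells (0.68 ± 0.086, difference -3.11 ± 0.089, limma adjusted p = 2.23e-08).

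NGFR, the receptor of the neural crest-like state, did not pass in Colo800 cells (0.096 ± 0.043) and rose in UACC62 cells (3.29 ± 0.17, difference -3.19 ± 0.12, limma adjusted p = 1.08e-07). PPARGC1A rose slightly in Colo800 cells (0.23 ± 0.053) and steeply in UACC62 cells (3.36 ± 0.15, difference -3.12 ± 0.14). TXNIP rose in Colo800 cells (2.47 ± 0.045) and did not pass in UACC62 cells (-0.20 ± 0.085, difference 2.66 ± 0.082, limma adjusted p = 3.77e-08), and MET showed the same pattern, with 1.85 ± 0.056 in Colo800 cells and 0.15 ± 0.15 in UACC62 cells (difference 1.71 ± 0.16). BMF rose in both but by less in Colo800 cells (1.94 ± 0.044) than in UACC62 cells (5.46 ± 0.14, difference -3.52 ± 0.14). BCL2L11 rose by more in Colo800 cells (1.75 ± 0.065) than in UACC62 cells (0.43 ± 0.16, difference 1.32 ± 0.18, limma adjusted p = 0.000375). AXL fell in both, with log2 changes of -2.63 ± 0.20 in Colo800 cells and -2.65 ± 0.44 in UACC62 cells, and the difference did not pass (0.027 ± 0.55, limma adjusted p = 0.976).

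MHC class II genes fell in Colo800 cells, whereas their medians in the other lines were above 0. The list's median log2 change was -0.91 in Colo800 cells, 0.17 in UACC62 cells and 1.32 in A375 cells. Of 10 genes 9 fell in Colo800 cells, 0 in UACC62 cells and 0 in A375 cells, where 37.3%, 29.6% and 25.6% of all genes tested in each line fell. Between Colo800 and UACC62 the difference passed for 9 of the 10, against 35.0% of all genes. CD74 changed by -1.65 ± 0.047 in Colo800 cells and 0.18 ± 0.11 in UACC62 cells (difference -1.83 ± 0.11, limma adjusted p = 1.11e-06). NRP1 fell in Colo800 cells (-2.89 ± 0.068) and rose in UACC62 cells (0.36 ± 0.10, difference -3.25 ± 0.11), and LUM, the proteoglycan lumican, did likewise at -2.50 ± 0.064 in Colo800 cells and 0.67 ± 0.11 in UACC62 cells (difference -3.17 ± 0.13). LIF and STC1 fell further in Colo800 cells: LIF changed by -7.47 ± 0.093 in Colo800 cells and -3.65 ± 0.12 in UACC62 cells (difference -3.82 ± 0.18), and STC1 by -7.63 ± 0.13 in Colo800 cells and -3.24 ± 0.21 in UACC62 cells (difference -4.39 ± 0.25). The A375 values come from another dose and medium, so they are set beside the others with no test.

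**Figure D5:**
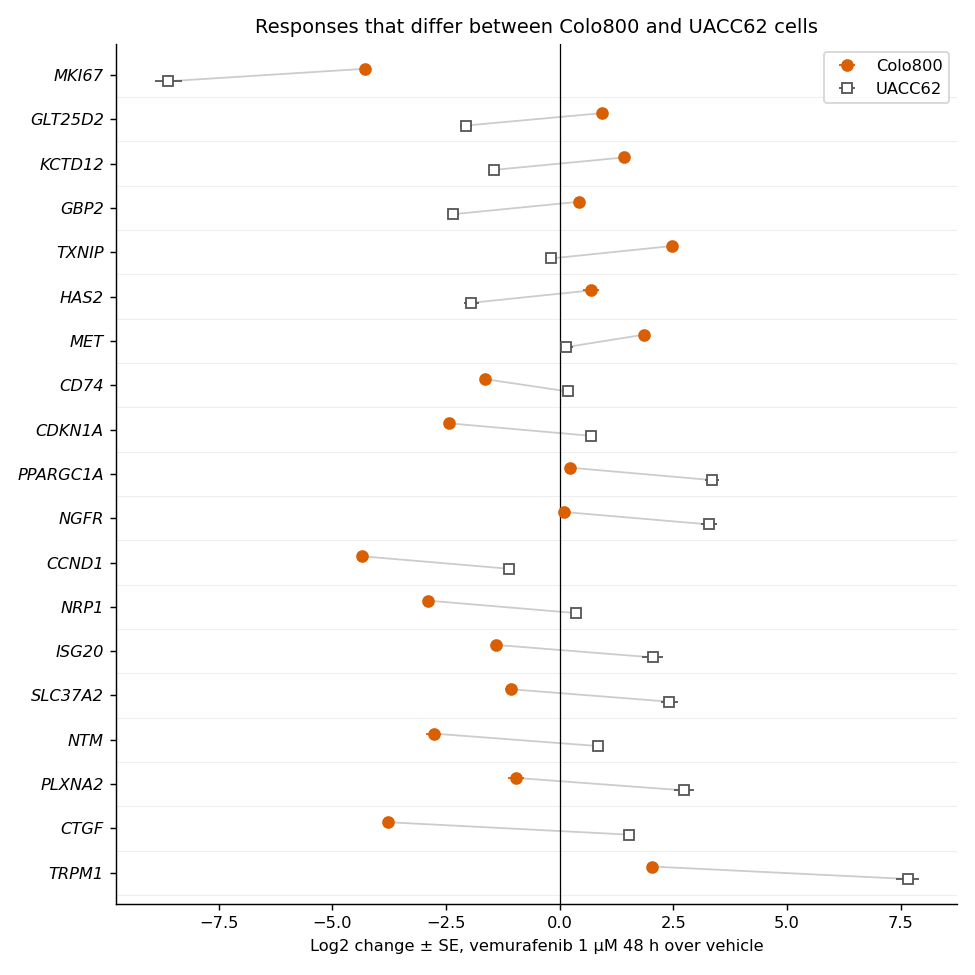
Log2 change ± SE (x axis, vemurafenib over vehicle) of 19 genes in Colo800 cells (filled circles, upper of each pair) and UACC62 cells (open squares, lower), both at 1 µM for 48 h, in order of the difference between lines; the 19 are 9 genes called in opposite directions with large differences and 10 others named in the text. GLT25D2 and MKI67 have the more positive change in Colo800 cells, and CTGF and TRPM1 the more negative change there.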

How the data were processed

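RNA of whole cells was sequenced from Illumina TruSeq libraries, a kit that does not mark strand, per the labels' protocols. The deposited signal of a gene symbol in a library is its read count over that library's size factor, as the authors scaled it. The submitters' processing notes name hg19 and mm9 as builds, and as tools DESeq 1.18.0, HTSeq 0.5.4 and STAR 2.3.0e, with no word on what each was used for. Filters and multi-mapping rules are not given in the sources used here, and overlapping genes cannot be told apart. Dividing each library's values by its step gave back whole reads for 100% of values, within 0.1 of a read. These sequencing reads carry no molecular identifiers, so depth limits counting error only, and totals of RNA per cell were not measured.

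Groups came from the sample titles. Genes averaging 10 or more over the 4 libraries, 13451 of 23368, were tested two-sided on log2(value + 1) by limma 3.58.1 (R 4.3.3), with its mean-variance trend. That scale understates changes of low genes. Genes past a Benjamini-Hochberg adjusted p of 0.05 were called, and 2-fold calls also needed a log2 change of at least 1 in size. The difference between lines was an interaction contrast over both tables, with a common spread per gene for both lines and no level compared across them. The scripts were tested on simulated data. Alternatives were a pseudocount of 0.5 or 5, filters on low values dropped or set to 50, quantile normalisation, a replicate block, edgeR 4.0.16 with TMM and DESeq2 1.42.0 on recovered reads, limma's test against a 2-fold change, and leaving out each library. Replicate numbers recur in the titles, but the deviations of same-numbered libraries correlated at only 0.0266 in Colo800 and 0.0167 in UACC62, so they were not treated as pairs.

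The 36 gene lists, 6 of them of cell type markers, and the rule for named genes were chosen with earlier results of these data known, so lists are described by counts and medians only. The rule takes the 15 largest changes each way among called genes with a mean of at least 50 and groups that do not overlap, up to 3 called members of each list per direction with a mean of at least 50, and a set of lineage, receptor, cycle and survival genes. Not all of these are named, and a few genes are not reported here. Levels are normalised reads per library and changes are log2 estimates ± SE, vemurafenib over vehicle. Promoters and motifs were read from a RefSeq table, and motif shares of lists with under 80% of members in it are not given.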

Additional observations from a re-analysis of the deposited data

Results flagged for a closer look

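A set of 9 genes was picked for opposite changes in Colo800 and UACC62 cells under the same dose and time. To enter, a gene had to pass the threshold in both lines with opposite signs and pass limma's interaction test between them. These passes are therefore conditions of the choice and not results. The 9 are among the 5 largest differences each way among such genes with a mean of at least 50 normalised reads in each table.

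More positive in Colo800 cells were GLT25D2, KCTD12, GBP2 and HAS2. GLT25D2, a collagen galactosyltransferase gene now called COLGALT2, differed by 3.0, at 0.94 ± 0.099 in Colo800 cells and -2.06 ± 0.12 in UACC62 cells (limma adjusted p = 3.82e-07). KCTD12, an auxiliary subunit of GABA-B receptors, differed by 2.86, at 1.43 ± 0.053 in Colo800 cells and -1.44 ± 0.11 in UACC62 cells. GBP2, an interferon-induced GTPase, differed by 2.76, at 0.43 ± 0.099 in Colo800 cells and -2.33 ± 0.11 in UACC62 cells. HAS2, a hyaluronan synthase, differed by 2.63, at 0.70 ± 0.18 in Colo800 cells and -1.94 ± 0.16 in UACC62 cells.

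More negative in Colo800 cells were CTGF, PLXNA2, NTM, SLC37A2 and ISG20. CTGF changed by -3.76 ± 0.12 in Colo800 cells and 1.53 ± 0.090 in UACC62 cells, a difference of -5.3 (limma adjusted p = 2.18e-08). PLXNA2, a semaphorin receptor, differed by -3.69, at -0.96 ± 0.17 in Colo800 cells and 2.73 ± 0.22 in UACC62 cells. NTM, a neural adhesion molecule, differed by -3.61, at -2.77 ± 0.17 in Colo800 cells and 0.84 ± 0.10 in UACC62 cells. SLC37A2, a sugar-phosphate exchanger, differed by -3.48, at -1.06 ± 0.13 in Colo800 cells and 2.42 ± 0.19 in UACC62 cells. ISG20, an interferon-induced nuclease, differed by -3.44, at -1.39 ± 0.12 in Colo800 cells and 2.05 ± 0.23 in UACC62 cells. These 9 differences passed with each library left out in turn and under each other setting run for the difference. Colo800 and UACC62 are 1 line each, so a difference between them is between these lines.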

How the results depend on the processing

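The 9858 genes called in Colo800 cells numbered 8194 to 9964 under the other pseudocounts, filters, scaling and tools, and 9030 to 9362 with each library left out. Against a minimum change of 2-fold, a stricter question by construction, 1607 genes passed, 463 of them higher and 1144 lower. Quantile normalisation moved the split of all calls to 5652 higher and 4254 lower and turned 5 calls, with DESeq2 and edgeR turning 0. Of the 2623 changes of at least 2-fold, 2502 were still called by DESeq2 and 2623 by edgeR. With the replicate block, 9936 genes passed in Colo800 cells and 4404 differed between lines, and no named call of a change was lost. The 4465 differing genes were 3023 to 6850 with each of the 8 libraries left out, the highest counts coming without a UACC62 vemurafenib library. Of the 30 non-marker lists, 23 had more 2-fold falls than 2-fold rises, and 21 to 24 did in the other settings.

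Of 201 genes followed singly, 143 kept direction and call in every setting, and the test against 2-fold ended 56 calls. Outside that test the calls that ended were of RPS27 and TPM2, and those gained were of BRAF and NGFR. The cause was not tested. RPS27 is the 1 riser counted above among ribosomal protein genes, and TPM2 is 1 of the 4 among actin genes. By DESeq2 those lists had 0 and 2 risers. All 28 differences between lines that were followed held in each setting run. With 2 libraries a group, an exact permutation test cannot pass the threshold, so calls rest on limma's pooled spread.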

Other observations

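Further members of lists counted above are given here. Among semaphorins and ephrins, SEMA3C, a secreted semaphorin, had 2195 and 2236 normalised reads in vemurafenib cells, against 542 and 579.7 in vehicle cells (log2 change 1.98 ± 0.052), while SEMA3A, another secreted semaphorin, had 15.2 and 14.4 normalised reads in vemurafenib cells, against 159.8 and 169.6 in vehicle cells (-3.39 ± 0.20). EFNA1, a membrane ligand of Eph receptors, rose (2.39 ± 0.20), and its receptor gene EPHA2 fell (-2.40 ± 0.058). Interferon signalling genes rose in part: IRF9, the DNA-binding partner of STAT2, had 413 and 385 normalised reads in vemurafenib cells, against 229 and 226 in vehicle cells (0.81 ± 0.086), and IFIH1, a sensor of viral RNA, rose too (0.75 ± 0.093). ISG20 fell (-1.39 ± 0.12), as did IFI35 (-1.28 ± 0.054). Among adhesion genes, CD44, the hyaluronan receptor, had 17681 and 16882 normalised reads in vemurafenib cells, against 9776 and 9580.1 in vehicle cells (0.84 ± 0.041), and L1CAM, a neural adhesion molecule, rose by 0.72 ± 0.043.

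The keratin genes KRT18, with 100.2 and 105 normalised reads in vemurafenib cells, against 499 and 469 in vehicle cells (-2.22 ± 0.099), and KRT8 (-2.21 ± 0.17) fell together, and they encode a filament pair. SFTPC, known as the gene of a lung surfactant protein, was read in this melanoma line and had 118 and 109 normalised reads in vemurafenib cells, against 32.2 and 24.4 in vehicle cells (1.98 ± 0.20), while SFTPA1 and SFTPB had 0 reads in all 4 libraries. In UACC62 cells SFTPC also rose (3.61 ± 0.18).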
